A study of Mus musculus with 16 samples.

Results

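The mitochondrial chromosome of the mouse carries 37 annotated genes, and all of them were taken here because they lie on chromosome M and their symbols begin with mt-. They make up 37 of the 53465 mouse genes in the count table and comprise 13 protein genes, 2 rRNA genes and 22 tRNA genes. The tumors were grown from MC38, a mouse colon adenocarcinoma line, injected under the flank skin of female C57BL/6 mice aged 6 to 8 weeks. Mice with tumors of 150 to 250 mm3 on day 16 were given 200 µg of either control IgG or an antibody against the immune checkpoint receptor PD-1 (aPD-1) on days 16 and 20. Tumors were taken on day 21. The table held 16 tumors, of which 8 came from IgG controls (replicates 1 to 8), 6 from aPD-1 non-responders (replicates 9 to 14) and 2 from aPD-1 responders (replicates 15 and 16). The study assigned response after treatment, by staining of CD8 T cells in the tumors, so that responders and non-responders had the same antibody and differ in the immune cells found in them. RNA came from 2 sections of 100 µm of each frozen tumor and was enriched for poly(A) RNA before strand-specific libraries were made.

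Mitochondrial RNA is made as long transcripts that run over most of each strand of a circular genome. These transcripts are cut mainly at the tRNAs that lie between most of the other genes. Most of the released mRNAs and rRNAs receive short poly(A) tails. The 13 proteins are core subunits of the respiratory chain and of ATP synthase, and they are made inside the organelle on ribosomes built on the mitochondrial rRNAs. All other subunits are encoded in the nucleus. Because each cell holds many mitochondrial genomes, mitochondrial mRNAs are among the most abundant of a cell.

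The sequence between mt-Rnr2, the large mitochondrial rRNA, and mt-Nd1, the first protein gene, shows this arrangement and is printed because the genes at both ends were highly counted and the gene between them had no count. It lies at chrM:2661-2765 of GRCm38 on the plus strand and was read from the GENCODE transcripts, with mt-Tl1, a leucine tRNA, in capitals.
mt-Tl1 junction: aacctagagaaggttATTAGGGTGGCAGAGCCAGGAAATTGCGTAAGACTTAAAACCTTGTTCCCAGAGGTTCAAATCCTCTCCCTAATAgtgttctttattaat
No base separates the 3 genes. As annotated, 10 of the 13 protein genes end in a whole stop codon. The other 3 end in a single T, which the poly(A) tail completes to a stop codon. Among the 10, mt-Nd1 and mt-Nd2 share their last 2 bases with a tRNA gene on the same strand. mt-Atp6 shares its last base with mt-Co3. If cut at these neighbours, their mRNAs would also lack a whole stop codon, and the ends of the mRNAs were not measured. The last 24 bases of mt-Co1, at chrM:6849-6872, show a whole stop, and those of mt-Co3 at chrM:9367-9390, mt-Nd4 at chrM:11521-11544 and mt-Cytb at chrM:15265-15288 show the incomplete kind, with the bases that follow the last sense codon in capitals.
mt-Co1 end: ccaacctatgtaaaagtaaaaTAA
mt-Co3 end: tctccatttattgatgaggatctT
mt-Nd4 end: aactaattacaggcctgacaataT
mt-Cytb end: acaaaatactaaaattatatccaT
The genes mt-Atp8 and mt-Atp6 share 43 bases at chrM:7927-7969, so reads within them belong to both. Capitals mark the first codon of mt-Atp6 and the stop codon of mt-Atp8.
mt-Atp8 and mt-Atp6 overlap: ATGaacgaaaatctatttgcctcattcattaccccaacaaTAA

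Total counts ranged from 26603449 to 39948866 per tumor, and 15417 to 17296 genes had at least 10 counts. Values are in CPM, counts scaled to the size of each library with TMM factors, unless stated. The IgG control tumor of replicate 3 stood apart, with 20.4% of its counts on nuclear rRNA genes against 0.151 to 0.489% in the other tumors. Epithelial markers, 9 genes that include general epithelial ones beside those of colon, were nearly absent from IgG control and non-responder tumors. Their sum there lay between 4.70 and 12.5 CPM. They summed to 117 and 50.7 CPM in the responders, and the sum does not tell which epithelium they came from. Of the 9, 6 had enough counts to be tested. The responders also held far more RNA of 6 B cell markers, at 1070 and 272 CPM against 1.43 to 6.99 CPM in the other tumors, and of 6 adipocyte markers, at 1241 and 230 CPM against 16.1 to 83.8 CPM. In bulk tissue, fewer cells of a type and less RNA per cell cannot be told apart.

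Mitochondrial genes took a similar share of the counts in most tumors and a far larger one in 3 tumors, which belonged to both treatment arms. In the IgG controls the share was 7.60, 2.66, 3.21, 2.61, 2.52, 2.59, 2.88 and 2.82% in replicates 1 to 8. In the non-responders it was 6.00, 2.97, 2.72, 3.12, 2.54 and 5.73% in replicates 9 to 14. The responders had 2.85 and 3.25%. Replicates 1, 9 and 14 were high, and the remaining 13 tumors of all groups lay between 2.52 and 3.25%. The group means were 3.36% ± 1.73 (SD, n = 8) in IgG controls, 3.85% ± 1.58 (SD, n = 6) in non-responders and 3.05% ± 0.287 (SD, n = 2) in responders, and the groups overlapped. Counting error was small, since the 95% Wilson interval of the highest share ran from 7.59 to 7.61%. Of the 3.21% in IgG replicate 3, mitochondrial rRNA genes made up 1.36% of all counts. Mitochondrial mRNAs alone took 1.84% of the counts in that tumor and 2.42% or more in every other tumor.

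**Figure D1:**
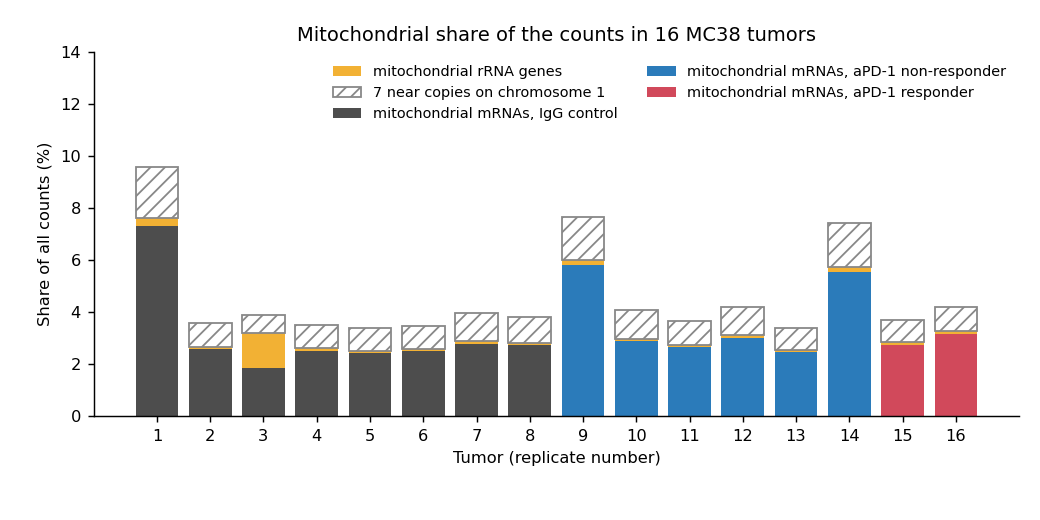
Share of all counts (%) in each of the 16 tumors, stacked as mitochondrial mRNAs (coloured by group), mitochondrial rRNA genes (yellow) and 7 near copies of mitochondrial genes on chromosome 1 (hatched). Replicates 1, 9 and 14 stand above the others with mitochondrial shares of 7.60, 6.00 and 5.73%, and replicate 3 has the thickest rRNA layer.

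The 3 high tumors were the same for every mRNA. All 13 mRNAs had their 3 highest CPM values in replicates 1, 9 and 14. The median ratio of an mRNA to its own median over 16 tumors was 2.49 in replicate 1, 2.26 in replicate 9 and 2.12 in replicate 14. The rise was uneven, from 1.72 to 5.34 times in replicate 1. In that tumor mt-Atp6, a subunit of the membrane part of ATP synthase, reached 5215 CPM and mt-Co2, a copper-binding subunit of complex IV, 9545 CPM. These 2 mRNAs rose most, but their values depend on how reads were divided with nuclear copies, given below. Of mRNAs not divided in this way, mt-Nd5 stood at 1.72 times and mt-Nd6 at 3.51 times its median. Depth was lowest in the same 3 tumors, at 26603449, 30978294 and 29062834 counts. Malat1, a long RNA retained in the nucleus, was also highest there, at 2644, 2032 and 2514 CPM against 812 to 1667 CPM in the others. Of the nuclear genes of the respiratory chain, those of complex II summed to 335, 365 and 382 CPM in replicates 1, 9 and 14 against 448 to 582 CPM in the others. Those of complex IV went the other way, at 2045, 2023 and 1942 CPM against 1275 to 1943 CPM, and those of complexes I and III lay within the range of the others. Those of complex V summed to 2816, 3139 and 3190 CPM against 2979 to 4719 CPM. Macrophage markers, 6 genes, were lowest in the same tumors, at 580, 619 and 638 CPM against 727 to 1072 CPM. So were 5 erythroid markers, at 24.6, 21.7 and 28.3 CPM against 33.7 to 247 CPM. The part of depth, nuclear RNA and these cell types in the high mitochondrial share was not tested.

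The 2 rRNAs departed from the mRNAs mainly in IgG replicate 3. In replicates 1, 9 and 14 both rRNAs were raised as the mRNAs were. There mt-Rnr2 was at 2.63, 1.94 and 2.01 times its median over 16 tumors, and mt-Rnr1 at 3.09, 1.64 and 1.76 times. mt-Rnr1 (chrM:70-1024), the RNA of the small mitochondrial ribosomal subunit, was at 6639 CPM in IgG replicate 3, and its values in the other 15 tumors ran from 222 to 971 CPM. mt-Rnr2 (chrM:1094-2675) was at 10742 CPM in that tumor and between 487 and 1824 CPM elsewhere. Mitochondrial rRNA was thus 42.5% of the mitochondrial counts in replicate 3 and 2.56 to 3.91% in the others, while the mRNAs of that tumor lay at a median of 0.849 times their own median. 5 nuclear RNAs that carry no poly(A) tail, among them Rmrp (the RNA of RNase MRP) and Rn7sk (a regulator of transcription elongation), were also high there. They summed to 5756 CPM in replicate 3 and to 27.3 to 101 CPM in the others. They were listed after the values were seen, and their link with the mitochondrial rRNAs was not tested.

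No count at all was assigned to a tRNA. All 22 tRNA genes, which are 59 to 75 bases long, were at 0 in all 16 tumors. The 5 of highest mean count, which were to be named, could not be ranked. A count of 0 allows up to 0.0751 to 0.113 CPM before TMM scaling, depending on the depth of the tumor and for counting error only. Poly(A) enrichment and library preparation are not designed to keep RNAs of this length, so a level of tRNA cannot be read from these values.

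Among the mRNAs, levels per length differed widely. On the scale of counts per kilobase, as a percentage of the sum over the 13 mRNAs, mt-Co1, the catalytic subunit of complex IV, came first with 23% ± 2.86 (SD, n = 16) and mt-Cytb, the cytochrome b of complex III, second with 21.5% ± 2.22. These did not differ beyond their spread. They were followed by mt-Co2 with 12.5% ± 3.09 and by 3 mRNAs at 6.26 to 8.69%, mt-Nd1 and mt-Nd2 of complex I and mt-Atp6. The complex I mRNAs mt-Nd4, mt-Nd5 and mt-Nd3 had 5.66, 3.05 and 3.03%, mt-Atp8 4.59% and mt-Co3, the third core subunit of complex IV, 3.57%. The lowest were mt-Nd6 with 1.05% ± 0.159, the only protein gene on the other strand, and mt-Nd4l with 0.673% ± 0.112. Both held ranks 12 and 13 in every tumor. Within a tumor the highest mRNA stood 27.4 to 45.5 times above the lowest on this scale. mt-Nd4l shares 7 bases with mt-Nd4, and mt-Atp8 shares 43 with mt-Atp6, with no tRNA gene between them. Such neighbours can lie on the same RNA, so a gap between them cannot be read as one of mRNA level. Lengths were those of the annotated genes, without a correction for short ones. The libraries were enriched for poly(A) RNA, and how fully each RNA was captured was not tested.

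**Figure D2:**
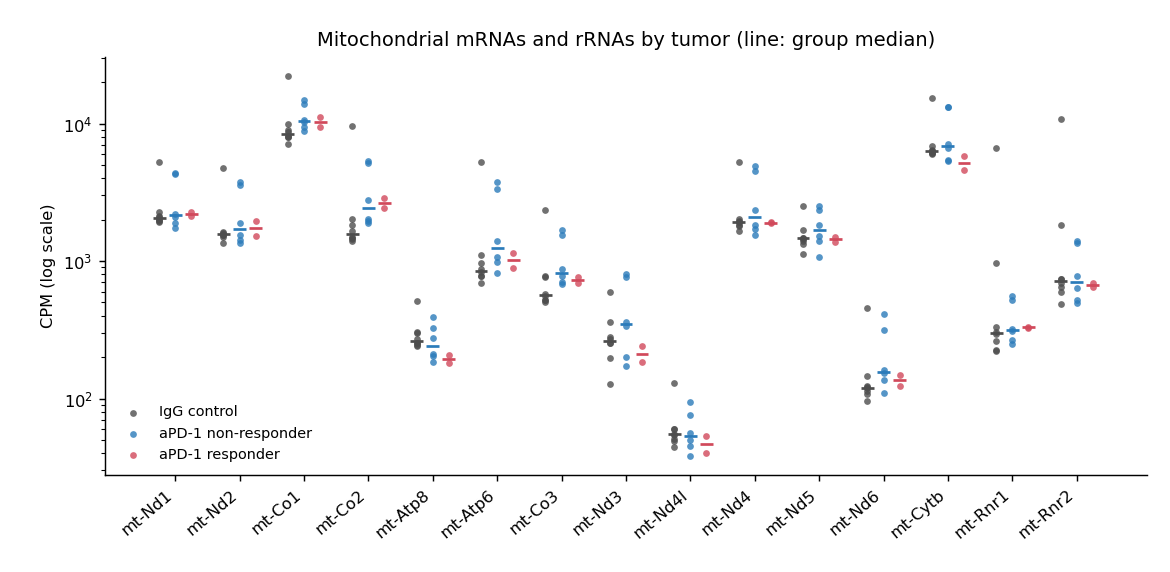
TMM-scaled CPM (log axis) of the 13 mitochondrial mRNAs and 2 rRNAs in each tumor, coloured by group, with a line at the group median. One IgG point, replicate 1, lies above the other IgG points for the mRNAs, and another, replicate 3, lies far above for mt-Rnr1 (6639 CPM) and mt-Rnr2 (10742 CPM).

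These levels depend on how reads were divided between the mitochondrial genes and copies of them in the nuclear genome. A stretch of chromosome 1 (chr1:24611535-24616197 of GRCm38) holds 7 annotated pseudogenes that match mitochondrial genes at 99.7% identity or more over the aligned bases. The copies that span nearly the whole gene took a large part of the counts. Gm28437 received 76.8 to 86.4% of the counts it shares with mt-Co3, with a median of 83.4% over 16 tumors. The medians were 77.1% for Gm10925 and mt-Atp6, 72.9% for Gm10222 and mt-Nd4l, 55.4% for Gm28438 and mt-Nd3, and 51.6% for Gm28661 and mt-Co2. The 2 copies that cover only a part of the gene took little, at 1.44% for Gm28439, which covers 876 of the 1378 bases of mt-Nd4, and 0.0650% for Gm29216, which aligns to 483 of the 1545 bases of mt-Co1. An eighth gene with at least 10 counts on average, Gm13340 on chromosome 2, aligned to mt-Co1 at 97.6% identity and had a mean of 18.7 counts. Reads from a gene and from an identical copy cannot be told apart, and the mean counts of 136993 for Gm28437 and 29387 for mt-Co3 come from an estimate of the most likely source.

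How little separates the sequences is shown by mt-Nd3 and Gm28438, whose aligned 345 bases hold a single difference. It is T3C, counted from 1 at the first base of mt-Nd3 (chrM:9459-9473, plus strand), with the gene's base first and marked in capitals.
mt-Nd3 start: atTaacctgtacact
Gm28438 start: atCaacctgtacact
The copies of mt-Co3, mt-Atp6, mt-Co2 and mt-Nd4l had no difference over 783, 678, 681 and 294 aligned bases.

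The division differed from tumor to tumor. Gm28661 took 20.3% of the counts shared with mt-Co2 in IgG replicate 1 and between 32.6 and 64.1% in the other tumors. With the copies added to their genes, mt-Co2 rose from 9545 to 11975 CPM in replicate 1, and its other IgG values then ran from 3349 CPM upward with a group median of 3893 CPM. Gm10925 took 61.2% of the counts shared with mt-Atp6 in replicate 1 and 62.8 to 82.4% in the other tumors. With it added, mt-Atp6 was at 13460 CPM in replicate 1, with an IgG median of 4055 CPM. Adding the copies changed the order of the mRNAs per length. mt-Atp6 then came first with 16.7% ± 1.44 (SD, n = 16), followed by mt-Co2 with 15.6% ± 1.24, mt-Co1 with 15% ± 1.69, mt-Cytb with 14% ± 1.17 and mt-Co3 with 13.7% ± 1.14, and neighbours in this order did not differ beyond their spread. mt-Nd6 was last in every tumor, with 0.691% ± 0.126. The mitochondrial share with copies was 9.59% in replicate 1, 7.67% in replicate 9 and 7.42% in replicate 14, and it was 3.38 to 4.18% in the other tumors.

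**Figure D3:**
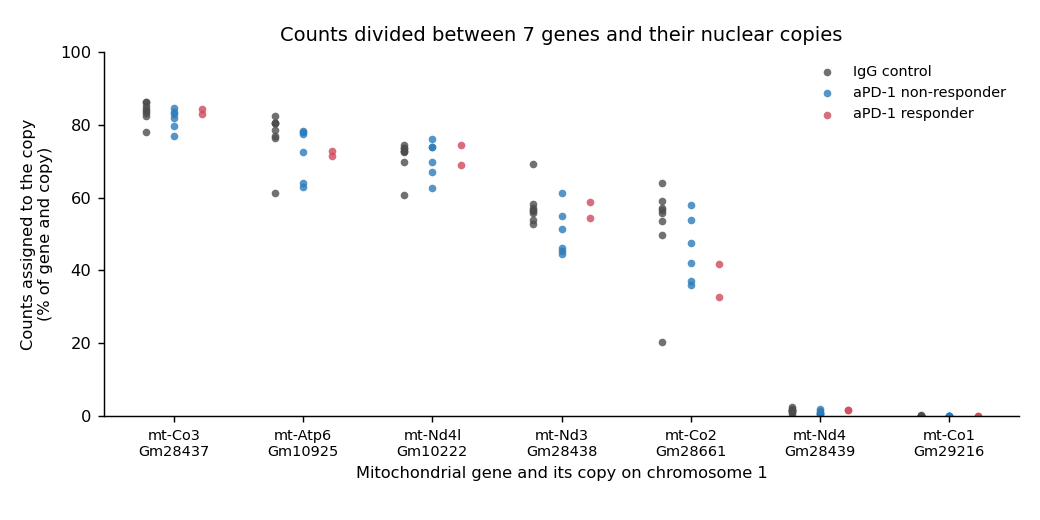
Counts assigned to the nuclear copy on chromosome 1, as a percentage of the counts of the mitochondrial gene and its copy together, for 7 pairs and 16 tumors coloured by group. The copies of mt-Co3, mt-Atp6, mt-Nd4l, mt-Nd3 and mt-Co2 take medians of 83.4, 77.1, 72.9, 55.4 and 51.6%, and those of mt-Nd4 and mt-Co1 take close to 0.

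The comparison of responders with non-responders asks which transcripts go with response among tumors given aPD-1. No mitochondrial gene passed it. Of the 15 mitochondrial genes past the filter on low counts, 0 reached an adjusted p of 0.05 in edgeR's quasi-likelihood test, 0 had an unadjusted p under 0.05 and DESeq2 called 0. Over all 18251 genes tested, 19.7% passed. The fitted log2 fold changes were below 0 for all 13 mRNAs, with a median of -0.45 against 0.02 over all genes. mt-Nd3 had the smallest adjusted p, with a log2 fold change of -1.05 ± 0.58 (SE) and an edgeR adjusted p of 0.244. Its values were 186 and 240 CPM in the responders and 764, 337, 174, 361, 201 and 802 CPM in the non-responders, which enclose those of the responders. mt-Cytb was at 4601 and 5793 CPM in the responders. In the non-responders its values were 13217, 6633, 5433, 7097, 5302 and 13239 CPM, and the log2 fold change was -0.71 ± 0.42 (SE) with an edgeR adjusted p of 0.277. The spread within groups was wide, with an SD of log2 CPM of 0.51 for mt-Cytb and 0.91 for mt-Atp6 against a median of 0.25 over the 12032 genes that averaged 100 counts or more. Without replicates 1, 9 and 14, the median log2 fold change was -0.08, still with 0 genes called.

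The comparison of non-responders with IgG controls asks what differs with the antibody in tumors not designated as responding. Again 0 of 15 mitochondrial genes passed in edgeR, and 0 had an unadjusted p under 0.05. No gene passed over the whole table (0%), where 694 of 18251 had an unadjusted p under 0.05 and DESeq2 called 10. The median log2 fold change of the 13 mRNAs was 0.21, with 11 above 0, against -0.01 over all genes. The value depended on single tumors. Without IgG replicate 1 it was 0.56 with all 13 mRNAs above 0. In that fit 10 of the 15 mitochondrial genes had an unadjusted p under 0.05, where 3219 of all 18104 genes tested did. Of the 15, 0 passed, with a smallest edgeR adjusted p of 0.137, while 7 of all genes passed. The median log2 fold change of the mRNAs was 0.07 without non-responder replicate 9, 0.10 without replicate 14 and 0.04 without replicates 1, 9 and 14. The log2 fold changes of the rRNAs were -1.65 ± 0.80 (SE) for mt-Rnr1 and -1.26 ± 0.70 (SE) for mt-Rnr2, with an edgeR adjusted p of 0.987 for both. The mt-Rnr1 values were 517, 309, 267, 319, 250 and 553 CPM in the non-responders. The IgG controls were at 971, 264, 6639, 334, 225, 294, 306 and 222 CPM. Without IgG replicate 3, the log2 fold change of mt-Rnr2 turned to 0.07.

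The comparison of responders with IgG controls shares its tumors with both of the others. Of the 15 mitochondrial genes, 0 passed, where 22.9% of 18251 genes did, and 0 had an unadjusted p under 0.05. The median log2 fold change of the mRNAs was -0.24, with 2 above 0, against -0.02 over all genes. It was 0.05 without IgG replicate 1. mt-Atp8 and mt-Cytb were lower in both responders than in every IgG control, a separation in that direction found for 9.67% of all genes tested. mt-Atp8, a small subunit of ATP synthase, was at 182 and 208 CPM in the responders. Its IgG values were 508, 253, 298, 245, 256, 243, 305 and 273 CPM, and the log2 fold change was -0.61 ± 0.29 (SE) with an edgeR adjusted p of 0.159. For mt-Cytb the lowest, median and highest IgG values were 5961, 6318 and 15343 CPM, and the log2 fold change was -0.51 ± 0.40 (SE) with an edgeR adjusted p of 0.413. When replicates 1, 9 and 14, picked by their mitochondrial share, were left out, 3 of the 15 genes passed, where 41.6% of all genes did. They were mt-Co2 with a log2 fold change of 0.66 and an edgeR adjusted p of 0.00413, mt-Atp8 with -0.51 and 0.00795, and mt-Cytb with -0.33 and 0.0431. With the nuclear copies added as well, 2 passed, mt-Atp8 and mt-Cytb, and mt-Co2 did not, where again 41.6% of all genes passed.

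**Figure D4:**
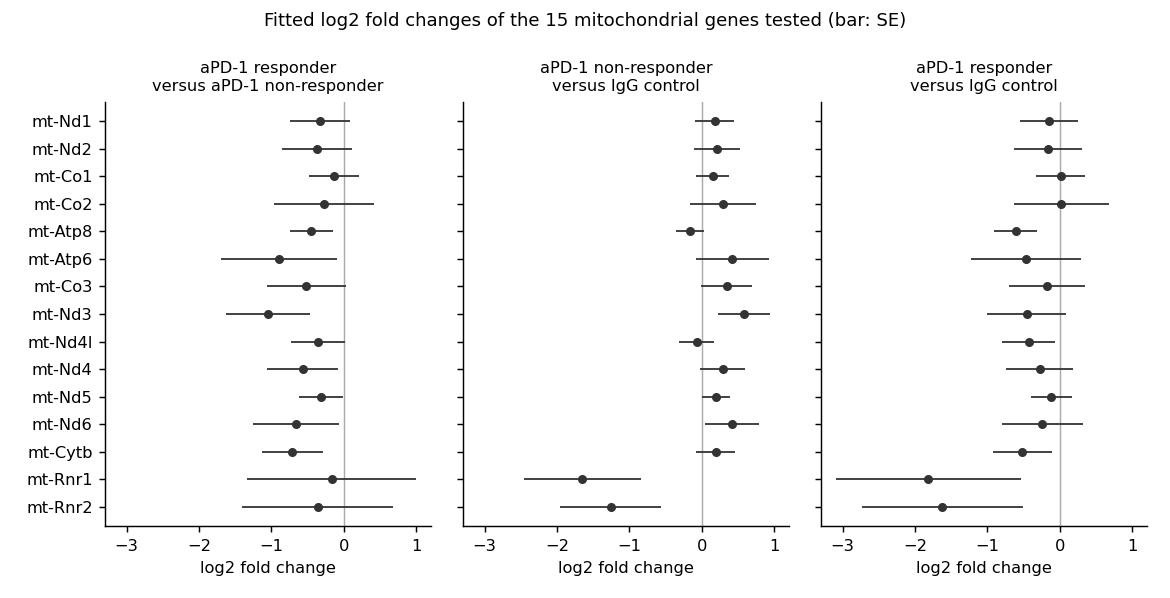
Fitted log2 fold changes (points) with SE (bars) of the 13 mitochondrial mRNAs and 2 rRNAs in 3 comparisons, from edgeR. The mRNAs lie below 0 in responders against non-responders (median -0.45), and the widest bars are those of the rRNAs.

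Ratios of counts within a tumor do not depend on scaling between tumors, and 9 tests of 3 ratios were made. They can depend on how fully poly(A) enrichment captured each RNA, which was not tested. The ratio of mt-Nd1 to mt-Cytb, the first and the last protein gene of the heavy-strand transcript, was higher in the responders than in every other tumor. It was 0.495 and 0.370 in the responders, 0.312 to 0.349 in the non-responders and 0.289 to 0.355 in the IgG controls. The difference in mean log2 ratio was 0.39 against each of the other groups, with an exact two-sided permutation p of 0.0357 against non-responders and 0.0222 against IgG controls. These are the smallest p-values such groups allow, and after adjustment over the 9 tests both were 0.131. The 2 responders differed from each other by more than the SD of either other group.

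The ratio of mt-Nd6 to mt-Cytb, neighbours on opposite strands, did not pass after adjustment in any comparison. It had a lowest, median and highest value of 0.0206, 0.0235 and 0.0311 in the non-responders and 0.0162, 0.0193 and 0.0296 in the IgG controls. The difference in mean log2 ratio was 0.29, with an exact two-sided permutation p of 0.0436 and an adjusted p of 0.131. Responders had 0.0323 and 0.0213, and the adjusted exact p was 0.918 against non-responders and 0.15 against IgG controls. The ratio of mt-Rnr2 to mt-Nd1 was 5.35 in IgG replicate 3 and 0.215 to 0.371 in all other tumors. Its 3 comparisons had adjusted exact p-values of 0.8 to 0.924.

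**Figure D5:**
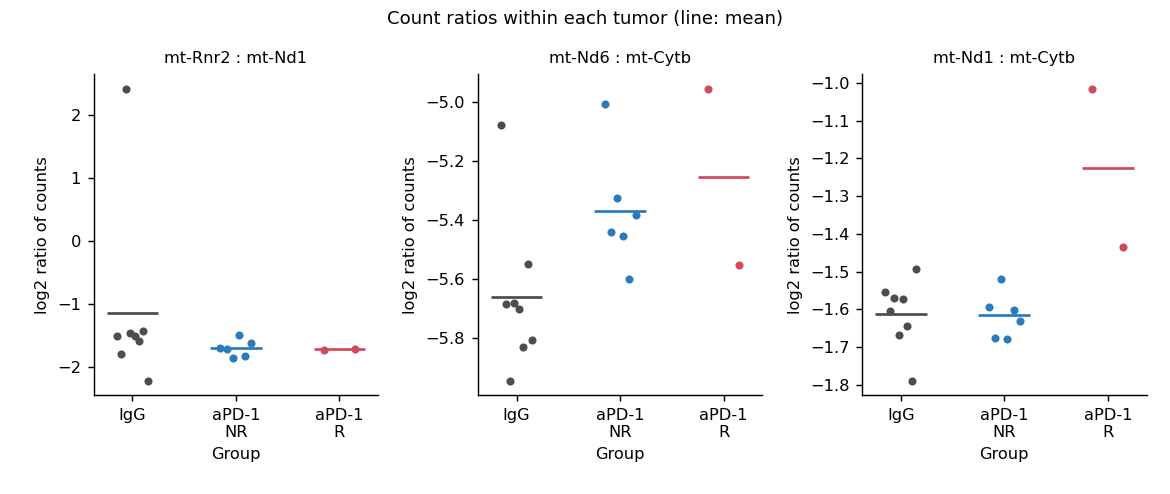
log2 ratio of counts within each tumor for 3 pairs of mitochondrial genes, by group (IgG control, aPD-1 non-responder NR, aPD-1 responder R), with a line at the group mean. Both responders lie above all other tumors for mt-Nd1 to mt-Cytb, and one IgG tumor, replicate 3, lies apart for mt-Rnr2 to mt-Nd1.

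Whether members vary together was examined for 4 pairs with mt-Co1 on log2 CPM. Over all 16 tumors, Pearson's r with mt-Nd6 was 0.91 and Spearman's rho 0.80, with adjusted permutation p-values of 8.0e-05 and 0.0016 over the 4 pairs. With mt-Cytb, r was 0.85 and rho 0.55, with adjusted permutation p-values of 0.0006 and 0.0598. Neither mt-Rnr2, with r of 0.22 and rho of 0.33, nor Cox4i1, a nuclear-encoded subunit of complex IV, with r of 0.25 and rho of 0.13, passed. The values for mt-Rnr2 include IgG replicate 3, at 10742 CPM against 487 to 1824 CPM in the others. No setting left that tumor out, so whether mt-Rnr2 varies with mt-Co1 in the other tumors was not tested. Without the 2 tumors farthest from the median of mt-Co1, r was 0.81 with mt-Nd6 and 0.62 with mt-Cytb.

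Because replicates 1, 9 and 14 stood apart, the correlations were also taken over the other 13 tumors, an alternative chosen after the values were seen that leaves out tumors by the mitochondrial share itself. With mt-Nd6, Pearson's r was then 0.63 and Spearman's rho 0.63, with permutation p-values of 0.0216 and 0.0239 and adjusted values of 0.0864 and 0.0958 over the 4 pairs. Without the 2 tumors farthest from the median of mt-Co1, r was 0.88. With mt-Cytb, r was 0.07 and rho 0.16, with permutation p-values of 0.816 and 0.604. Both genes are part of the share by which the 3 high tumors were left out, which narrows their range. The lower r therefore cannot show on which tumors the relation over 16 rests. With mt-Rnr2, r was -0.27 and rho -0.05, with permutation p-values of 0.417 and 0.865 and IgG replicate 3 still included. With Cox4i1, r was 0.26 and rho 0.30, with permutation p-values of 0.387 and 0.315. Without the 2 farthest tumors, r was 0.25, -0.36 and 0.43 for these 3.

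Some nuclear partners of the mitochondrial proteins were lower in the responders. Of 75 tested nuclear genes for subunits of complexes I to V, 14 fell and 0 rose in responders against non-responders at an adjusted p of 0.05, where 4.34% of all genes fell. The median log2 fold change over the 75 was -0.34. Against IgG controls 10 fell and 0 rose, where 5.17% of all genes fell, and between non-responders and IgG controls 0 passed. Atp5d, a subunit of the stalk of ATP synthase, was at 111 and 118 CPM in the responders and 177 ± 11 CPM (SD, n = 6) in the non-responders, with a log2 fold change of -0.63 ± 0.13 (SE) and an edgeR adjusted p of 0.00223. Cox8a of complex IV was at 121 and 124 CPM against 172 ± 10.9 CPM (SD, n = 6), with -0.49 ± 0.12 (SE) and an edgeR adjusted p of 0.00705. Ndufa12 of complex I fell by 0.55 and Uqcr11 of complex III by 0.64 on the log2 scale. Of the 4 complex II genes, 0 passed.

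Genes for the mitochondrial ribosome, which reads the 13 mRNAs, followed the same direction. Of 78 tested, 20 fell and 0 rose in responders against non-responders, with a median log2 fold change of -0.35, where 4.34% of all genes fell. Against IgG controls 20 fell, where 5.17% of all genes fell. Mrps26 was at 32.5 and 33.6 CPM in the responders and 49.7 ± 2.83 CPM (SD, n = 6) in the non-responders, with a log2 fold change of -0.59 ± 0.14 (SE) and an edgeR adjusted p of 0.00521. Of 33 genes that transcribe, process or maintain mitochondrial RNA and DNA, 1 rose and 0 fell in responders against non-responders, where 15.4% of all genes rose. It was Mterf4, a factor needed for assembly of the mitochondrial ribosome, at 22.4 and 14 CPM against 11.7 ± 1.27 CPM (SD, n = 6). Against IgG controls 1 of the 33 rose, again Mterf4, where 17.7% of all genes rose. Another 2 fell, Supv3l1 and Tbrg4, near the 5.17% of all genes that fell. Of 17 mitochondrial aminoacyl-tRNA synthetases, 0 passed in any comparison, where 19.7% of all genes passed against non-responders and 22.9% against IgG controls in responders. Among them Lars2, which contains a repeat similar to nuclear rRNA, was at 9978 CPM in IgG replicate 3 and 90.9 to 365 CPM elsewhere. Of 11 genes of mitochondrial biogenesis and turnover, 2 rose in responders against non-responders, near the 15.4% of all genes that did. They were Pink1 with a log2 fold change of 0.70 and Ppargc1a with 3.64, the latter at 2.16 and 0.647 CPM.

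Beside these nuclear genes, B cell, T cell and adipocyte markers were higher in the responders. All 6, 7 and 6 tested members rose past the threshold against non-responders, where 15.4% of all genes rose. Of 6 epithelial markers tested, 5 rose. The part of these markers' cells in the lower nuclear subunits was not tested. The ratio of summed mitochondrial mRNA to summed nuclear subunit mRNA, both in CPM and not per length, was 3.48 and 3.89 in the responders. It was 6.09, 2.97, 2.70, 3.05, 2.84 and 6.15 in the non-responders. In the IgG controls it was 8.38 in replicate 1 and 2.47 to 3.03 in the other 7. The responders lay above 11 tumors and below replicates 1, 9 and 14.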

How the data were processed

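The authors aligned reads with STAR 2.6 to GRCm38 and deposited expected counts per gene from RSEM 1.3.0, unnormalized, with 1 column per tumor. RSEM divides reads that match several genes by likelihood. Whether counting used strand is not given in the sources used here. Expected counts were rounded, and 92 spike-in entries with at most 185 counts in a tumor were left out. Each tumor came from another mouse and counted as 1 replicate. Symbols and positions came from GENCODE mouse release 21. edgeR 4.0.16 (TMM, filterByExpr, robust quasi-likelihood test) was fitted to all 16 tumors, with Benjamini-Hochberg adjustment over all genes tested, and was tested on simulated data. DESeq2 1.42.0 was an alternative. Near copies were found with blastn 2.17.0 at 95% identity over at least 100 bases. Permutation tests were exact, or used 100000 draws for correlations over 10 or more tumors. Members and lists were chosen with earlier results of these data known. Genes eligible to be named were all mitochondrial mRNAs and rRNAs, the 5 highest tRNAs, near copies averaging at least 10 counts and, of each nuclear list, up to 4 genes of smallest p at an adjusted p of 0.05 and the 2 highest in CPM. Malat1, Rmrp and Rn7sk were named after their values were seen. Alternatives were other scalings and filters, fits of 2 groups, added near copies and leaving out tumors.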

Additional observations from a re-analysis of the deposited data

Results flagged for a closer look

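Single tumors stood far from the rest of their group, by Dixon's criterion at the 95% level, in 17 of the 38 sets of values examined. That level allows about 1 in 20 for independent sets of normal values. CPM and shares were not on a log scale, so 17 of 38 cannot be weighed against it. IgG replicate 1 was the far one in 14 sets. Its mitochondrial share of all counts was 7.60%, and it was far above the other IgG controls in mt-Nd1 (5224 CPM), mt-Nd2 (4760 CPM), mt-Co1 (22108 CPM), mt-Co2 (9545 CPM), mt-Atp8 (508 CPM), mt-Atp6 (5215 CPM) and mt-Co3 (2353 CPM). The same held for mt-Nd4l (129 CPM), mt-Nd4 (5286 CPM), mt-Nd5 (2530 CPM), mt-Nd6 (454 CPM) and mt-Cytb (15343 CPM), and for the log2 ratio of mt-Nd6 to mt-Cytb, at -5.08. IgG replicate 3 was far above its group in mt-Rnr1 (6639 CPM), in mt-Rnr2 (10742 CPM) and in the log2 ratio of mt-Rnr2 to mt-Nd1, at 2.42. The 14 sets of replicate 1 are not independent, as its mRNAs rise together. The 2 high non-responders, replicates 9 and 14, lie near each other, so the criterion, which measures the gap to the nearest tumor, marks neither.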

How the results depend on the processing

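No paired analysis was possible because the groups share no replicate numbers. In 3 comparisons the count of mitochondrial genes called stayed at 0 under DESeq2, all scalings and filters, the 2-group fits, added near copies and each tumor left out. It became 3 in responders against IgG controls without replicates 1, 9 and 14, and 2 (1 against non-responders, mt-Atp6) when copies were also added, where 41.6% of all genes passed against IgG in both fits and 32.6% against non-responders with copies; these alternatives were chosen after seeing the data, the tumors by their share. Where 1 responder was left, it was assumed to vary like the other groups.

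Without these 3 tumors, log2 fold changes turned to 0.10 (mt-Nd1), 0.11 (mt-Nd2), 0.020 (mt-Co1), 0.24 (mt-Co2), 0.14 (mt-Rnr1) and 0.085 (mt-Rnr2) in responders against non-responders, to -0.040 (mt-Cytb), -0.043 (mt-Nd1) and -0.012 (mt-Nd4) in non-responders against IgG, and to 0.056 (mt-Nd1), 0.12 (mt-Nd2), 0.18 (mt-Atp6), 0.22 (mt-Co3) and 0.15 (mt-Nd6) in responders against IgG. In the last comparison mt-Co2 became -0.00032 in DESeq2, -0.00028 with median-of-ratios factors, -0.052 when scaled without mitochondrial genes (mt-Co1 then -0.050) and -0.17 with copies added. DESeq2 gave 0.076 for mt-Rnr2 in non-responders against IgG.

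With single tumors left out, the values ran from -0.73 to 0.18 (mt-Atp6), -0.17 to 0.23 (mt-Co1), -0.17 to 0.66 (mt-Co2), -0.31 to 0.22 (mt-Co3), -0.27 to 0.054 (mt-Nd1), -0.40 to 0.12 (mt-Nd2) and -0.46 to 0.14 (mt-Nd6) in responders against IgG, and from -0.30 to 0.0061 (mt-Atp8), -0.0016 to 0.45 (mt-Nd1), -0.25 to 0.18 (mt-Nd4l) and -1.45 to 0.074 (mt-Rnr2, highest without IgG replicate 3) in non-responders against IgG.

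The log2 ratio of mt-Nd1 to mt-Cytb ranged, with single tumors left out, from 0.18 to 0.60 both for responders against non-responders and against IgG, and its unadjusted p was over 0.05 without either responder, where 1 against 6 or 8 tumors cannot reach it. Without the 3 tumors it was 0.39 against non-responders, with an exact permutation p of 0.0667, the smallest that groups of these sizes allow. Between non-responders and IgG it ran from -0.029 to 0.013, and was 0.0024 without the 3. That of mt-Nd6 to mt-Cytb ran from 0.22 to 0.38 in non-responders against IgG, with a difference of medians of 0.28 at an exact p of 0.0606, and from -0.19 to 0.41 in responders against non-responders. That of mt-Rnr2 to mt-Nd1 ran from -0.049 to 0.024 in responders against non-responders, and was 0.0043 without the 3. Pearson's r of mt-Co1 over 16 tumors turned to -0.0047 (Cox4i1) and -0.068 (mt-Rnr2) without the 2 farthest, was 0.72 with Cox4i1 in IgG controls alone, and was 0.072 (mt-Cytb) and -0.27 (mt-Rnr2) without the 3. The causes of these moves were not tested.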
